A study of Rattus norvegicus with 9 samples.

Results

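The interferon-stimulated genes Mx1, Mx2, Irf7, Isg15, Oas1a, Ifit2, Ifit3, Usp18 and Gbp2 were followed in a small muscular artery of the rat, the first side branch of the saphenous artery in the hind leg. They were found by taking every probeset (a set of short probes to 1 transcript) whose platform gene symbol was 1 of these 9 names. The RAE230A array held 8 such probesets, for 7 of the 9 genes, among 15866 probesets that were not controls. Mx2 had 2 probesets, Mx1, Irf7, Oas1a, Ifit3, Usp18 and Gbp2 had 1 each, and no probeset carried the symbol Isg15 or Ifit2, so both are without a value here.

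Male rats aged 16 weeks formed 3 groups of 3 arrays. In the ACTH group, Wistar-Kyoto (WKY) rats had received adrenocorticotropic hormone under the skin for 4 weeks, starting at week 12 of life, and the labels give the daily dose as 0.1 mg/kg while the study's methods name another dose. The SHR group were untreated spontaneously hypertensive rats, an inbred strain, and the WKY group were untreated normotensive rats, which were the reference for both. Each array held RNA pooled from 2 or 3 rats and amplified in 2 rounds before labelling, so the spread between arrays is that between pools and the spread between single rats is not seen. Whole artery was extracted, so fewer cells of a type and less RNA per cell cannot be told apart.

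Type I interferons bind a receptor made of Ifnar1 and Ifnar2, whose kinases Jak1 and Tyk2 phosphorylate transcription factors that include Stat2. A complex that holds Stat2 and Irf9 binds the interferon-stimulated response element (ISRE) in promoters, while interferon gamma acts at a different element (GAS). The genes so induced include enzymes and GTPases that block viral replication, the transcription factor Irf7, which feeds back on interferon production, and Usp18, which ends the response. Glucocorticoids, which the adrenal cortex releases under ACTH, are known to dampen inflammatory signalling.

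The promoters are shown because the ISRE is the element through which genes of this kind are known to be induced. RefSeq (build GRCr8) gave a start site and 300 bases of promoter (250 before and 50 after the start) for 5 members, Mx1, Irf7, Oas1a, Ifit3 and Gbp2. The letters GAAANNGAAA, searched on both strands as the ISRE core, were present in 4 of these 5 promoters and in 3.92% of 33469 promoters of the same length. Oas1a held them at a pair of overlapping positions, and Mx1 did not hold them in this window. The GAS letters TTCNNNGAA, which were present in 8.874% of all promoters, were found in that of Oas1a alone. In the stretches below, written 5′ to 3′ on the strand of the gene, capitals mark the ISRE letters, and Irf7, Ifit3 and Gbp2 carry them on the opposite strand. The table's start site lies inside the gene's annotated span in Irf7 and Oas1a, so it is not the outermost start of the gene. Counted from the table's start, the first capital lay 69 bases before it in Irf7, 41 in Oas1a, 44 in Ifit3 and 31 in Gbp2.
Irf7 (chr1:205800063-205800112, minus strand): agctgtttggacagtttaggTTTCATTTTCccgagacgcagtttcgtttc
Oas1a (chr12:41330405-41330460, plus strand): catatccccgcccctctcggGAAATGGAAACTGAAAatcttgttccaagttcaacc
Ifit3 (chr1:241527262-241527311, plus strand): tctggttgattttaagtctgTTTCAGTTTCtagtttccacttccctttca
Gbp2 (chr2:234005676-234005725, plus strand): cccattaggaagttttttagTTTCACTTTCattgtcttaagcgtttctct

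Signals are MAS5 intensities on a linear scale, brought by the authors to a common mean of 150 on every array. The median signal of an array was 52.3 to 58.1 and its 20th percentile 8.6 to 12.5. No detection calls were used, so the lowest signals may lie near background. Of 24 member signals in each group, 16 lay below the median of their own array in ACTH, 12 in SHR and 5 in WKY. Only 3 of them, all in ACTH, lay below the 20th percentile.

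Log2 signals were compared with limma over the probesets with the highest third-highest signal (57.3% of those that were not controls), and a probeset was called changed at a Benjamini-Hochberg adjusted p under 0.05. This filter kept 7 of the 8 member probesets, and left out the second Mx2 probeset, 1387283_at. It can pass a probeset through its high group alone: Mx1 and the kept Mx2 probeset reached the limit of 44.3 on all 3 WKY arrays and on no ACTH array. Differences are given ± their standard error, and group means ± SD.

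Among the kept probesets Gbp2, Oas1a, Mx1 and Mx2 fell in ACTH arteries relative to WKY arteries. In ACTH the signals of Mx1 and Mx2 were low on every array, and in the fit of all probesets that were not controls none of these calls was made (lowest adjusted p = 0.101). In SHR arteries none of the 7 kept probesets passed the test against WKY, though Mx1, Mx2, Gbp2 and Oas1a had lower signals on every SHR array than on any WKY array. Between the hypertensive groups Mx1, Mx2 and Irf7 had lower signals on every ACTH array than on any SHR array, and of these Irf7 passed the test.

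**Figure D1:**
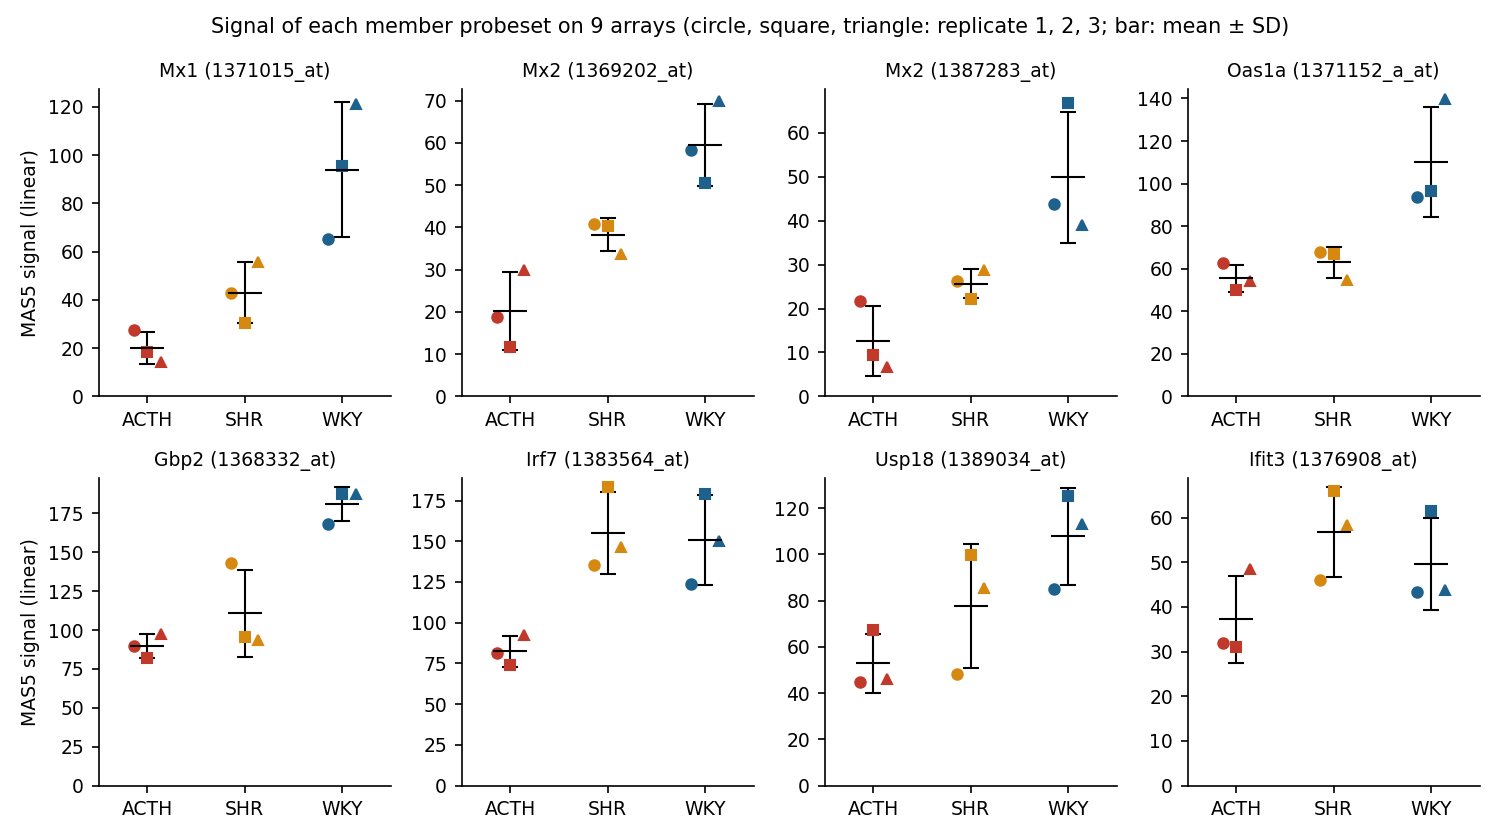
MAS5 signal (linear scale) of each of the 8 member probesets on the 9 arrays, with ACTH left, SHR in the middle and WKY right; points are arrays and bars are mean ± SD of 3 arrays. The ACTH arrays lie below all WKY arrays in every panel but that of Ifit3, and Irf7 in SHR overlaps WKY.

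Gene positions are those of RefSeq (GRCr8). Mx1 (chromosome 11, 50269056 to 50294699) encodes a GTPase that in rodents acts in the nucleus against influenza-like viruses. Its probeset 1371015_at had signals of 27.4, 18.5 and 14.3 in ACTH, 42.7, 30.5 and 55.8 in SHR, and 65.2, 95.3 and 121 in WKY. The 3 groups did not overlap: every ACTH array lay below every SHR array, which in turn lay below every WKY array. Means were 20.1 ± 6.66 in ACTH, 43.0 ± 12.7 in SHR and 93.9 ± 28.0 in WKY (SD, n = 3). The difference of ACTH from WKY was -2.23 ± 0.30 on the log2 scale, a 4.70-fold lower signal (limma, adjusted p = 0.00852). SHR differed from WKY by -1.12 ± 0.30 (adjusted p = 0.0971), and ACTH from SHR by -1.11 ± 0.30 (adjusted p = 0.0814). Among the kept probesets Mx1 was called in ACTH against WKY with any 1 array left out. It was not called in the fit of all probesets that were not controls (adjusted p = 0.101), with the GAPDH ratio as a covariate (adjusted p = 0.230) or with scan day as a fixed block (adjusted p = 0.275).

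Mx2 (chromosome 11, 50375101 to 50399373), a cytoplasmic GTPase of the same family, lies close to Mx1, and how far their probes tell the pair apart was not tested. Probeset 1369202_at had signals of 18.8, 11.7 and 30.0 in ACTH, 40.7, 40.3 and 33.8 in SHR, and 58.2, 50.5 and 69.8 in WKY. These groups did not overlap either, and the lowest WKY array was above the highest SHR array. ACTH was 3.15-fold lower than WKY (log2 difference -1.65 ± 0.29, adjusted p = 0.0248). The SHR difference from WKY was -0.63 ± 0.29 (adjusted p = 0.309) and the ACTH difference from SHR was -1.02 ± 0.29 (adjusted p = 0.0896). The second probeset of Mx2, 1387283_at, gave 21.8, 9.39 and 6.79 in ACTH, 26.2, 22.1 and 28.7 in SHR, and 43.7, 66.8 and 38.9 in WKY. It held the same order of groups at lower signals, without overlap. In a fit of all probesets that were not controls its difference was -2.12 ± 0.42 between ACTH and WKY (adjusted p = 0.178).

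Oas1a (chromosome 12, 41330423 to 41341130) encodes an oligoadenylate synthetase, which senses double-stranded RNA and activates RNase L. Signals of 1371152_a_at were 62.5, 49.9 and 54.2 in ACTH, 67.9, 66.8 and 54.7 in SHR, and 93.6, 96.6 and 140 in WKY. ACTH and SHR overlapped, and both lay wholly below WKY. The log2 difference from WKY was -0.97 ± 0.19 in ACTH (adjusted p = 0.0361) and -0.78 ± 0.19 in SHR (adjusted p = 0.0637). Between ACTH and SHR it was -0.18 ± 0.19, with a 95% interval of -0.59 to 0.23 (adjusted p = 0.668).

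Gbp2 (chromosome 2, 234005727 to 234021812) encodes a guanylate-binding GTPase that is induced above all by interferon gamma and acts against intracellular pathogens. Its probeset 1368332_at had signals of 89.6, 82.0 and 97.7 in ACTH, 143, 95.4 and 93.7 in SHR, and 168, 187 and 187 in WKY. SHR 1 stood above the other SHR arrays but below WKY. ACTH was 2.02-fold lower than WKY (log2 difference -1.01 ± 0.18, adjusted p = 0.0269). With 1 array left out this call held in 3 of 9 fits, those without an SHR array (differences -1.08 to -0.95). SHR differed from WKY by -0.74 ± 0.18 (adjusted p = 0.0716). Over single arrays left out the SHR difference was -0.94 to -0.63. It was called in 1 of these fits, that without SHR 1 (-0.94, adjusted p = 0.0129). ACTH differed from SHR by -0.28 ± 0.18, with a 95% interval of -0.67 to 0.12 (adjusted p = 0.475).

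Irf7 (chromosome 1, 205796956 to 205800543) encodes the transcription factor that amplifies production of type I interferon. Signals of 1383564_at were 81.4, 73.8 and 92.6 in ACTH, 135, 183 and 146 in SHR, and 123, 179 and 150.2 in WKY. All ACTH arrays lay below all others, while SHR and WKY covered the same range. ACTH was 1.87-fold lower than SHR (log2 difference -0.90 ± 0.18, adjusted p = 0.0248). Against WKY the ACTH difference was of like size, -0.86 ± 0.18, and missed the threshold (adjusted p = 0.0538). SHR differed from WKY by 0.04 ± 0.18, with a 95% interval of -0.36 to 0.44 (adjusted p = 0.931). The call between ACTH and SHR was lost without ACTH 1, ACTH 2, ACTH 3, SHR 2 or SHR 3, with log2 differences of -0.99 to -0.78 over all single arrays left out.

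Usp18 (chromosome 4, 156143770 to 156171292) encodes the protease that removes the ubiquitin-like protein Isg15 from its targets and blocks the type I receptor. Its signals (1389034_at) were 44.7, 67.4 and 46.3 in ACTH, 48.0, 99.7 and 85.2 in SHR, and 84.8, 125 and 113 in WKY. ACTH lay below WKY on every array and SHR overlapped both. The log2 difference from WKY was -1.03 ± 0.28 in ACTH (adjusted p = 0.132) and -0.52 ± 0.28 in SHR (adjusted p = 0.386), and ACTH differed from SHR by -0.52 ± 0.28 (adjusted p = 0.381).

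Ifit3 (chromosome 1, 241527326 to 241532469), an adaptor in the antiviral complex of Ifit proteins, had a probeset whose groups overlapped. Signals of 1376908_at were 32.0, 31.1 and 48.5 in ACTH, 46.1, 66.0 and 58.3 in SHR, and 43.4, 61.4 and 43.9 in WKY. The ACTH difference was -0.43 ± 0.22 from WKY (adjusted p = 0.496) and -0.63 ± 0.22 from SHR (adjusted p = 0.178), while SHR differed from WKY by 0.20 ± 0.22 (adjusted p = 0.698).

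Counted over the 7 kept probesets, 4 were called lower in ACTH than in WKY and 0 higher. Among all kept probesets 1.21% were called in either direction in this comparison and 0.659% were called lower. The ACTH arrays lay below the WKY arrays without overlap for 6 of the 7, against 9.77% of all kept probesets. The median member difference was -1.01, beside 0.02 over all kept probesets. Because the members were chosen with earlier results of these data known, these shares describe the list and do not test it. Without ACTH 1, ACTH 2, WKY 1 or WKY 3 the number called was 1 (Mx1), and without ACTH 3 it was 2. Of all kept probesets 23, 22, 28 and 19 were then called lower, and 22 without ACTH 3, beside 60 with all arrays. Since passing the filter through the high group favours a difference, the 8 member probesets were also read in the fit of all probesets that were not controls. There 8 of 8 were lower in ACTH than in WKY, 7 without overlap (7.06% of all) and 7 at an unadjusted p under 0.05 (3.27% of all). After adjustment that fit called 0 probesets on the whole array between ACTH and WKY, and the lowest member adjusted p was 0.101.

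Between SHR and WKY, 0 of the 7 were called by limma, where 2.04% of all kept probesets were called in either direction. At an unadjusted p under 0.05, 3 were lower, against 8.30% of all kept probesets, and the methods' t-test after Benjamini-Hochberg adjustment called 0. The SHR arrays lay below the WKY arrays without overlap for 4 of 7, beside 9.64% of all kept probesets, and the median difference was -0.63. Between ACTH and SHR, Irf7 alone was called, 1 of 7, where 1.57% of all kept probesets were called lower and 3.4% in either direction. Arrays did not overlap for 3 of 7, Mx1, Mx2 and Irf7, against 11.7% of all. The comparisons share arrays, ACTH and SHR being both set against the same 3 WKY arrays, so the differences are not independent of each other.

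**Figure D2:**
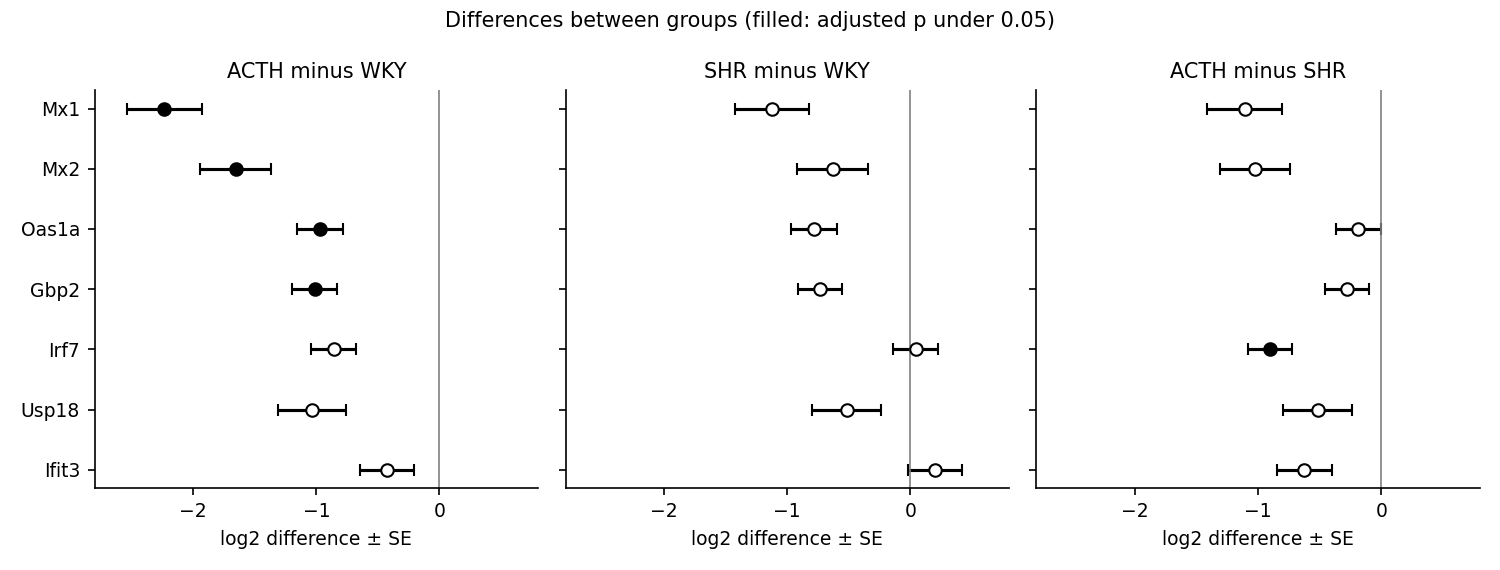
Log2 difference ± SE of the 7 kept member probesets for ACTH minus WKY, SHR minus WKY and ACTH minus SHR; filled points have an adjusted p under 0.05. Mx1 and Mx2 lie farthest below 0 in ACTH minus WKY, and Irf7 is the filled point of ACTH minus SHR.

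Most members shared an order of group means. Mx1, Mx2, Usp18, Oas1a and Gbp2 had their mean highest in WKY, lower in SHR and lowest in ACTH. For Oas1a and Gbp2 the step between SHR and ACTH was small beside its standard error. For Usp18 the SHR arrays overlapped both other groups, and no difference was called. Irf7 and Ifit3 had means that were near each other in SHR and WKY, highest in SHR, and lower in ACTH. Over the 9 arrays the 21 pairs of members had a median Pearson r of 0.70 (range 0.17 to 0.90), which includes the differences between groups. With the group means removed the median was 0.06 (range -0.73 to 0.85), and the highest of these was between Ifit3 and Irf7. Averaged over the 7 probesets, the log2 signal lay below the WKY mean by -1.13, -1.32 and -1.06 on the ACTH arrays and by -0.57, -0.44 and -0.50 on the SHR arrays. The WKY arrays themselves lay at -0.23, 0.08 and 0.15.

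Scan day, as the array records give it, divided the arrays unevenly. The second scan day held all ACTH arrays and SHR 3, and another held WKY 2 beside the remaining SHR pools. Each of the other WKY arrays had a day to itself, so no day gives a value for ACTH against WKY. Within the day that held ACTH and SHR 3, 6 of 7 members were lower in ACTH, 5 of them with all 3 ACTH arrays below the single SHR array (32.2% of all kept probesets), with a median log2 difference of -0.72. There Mx1 differed by -1.53, Oas1a by 0.01 and Gbp2 by -0.06. Within the day of SHR 1, SHR 2 and WKY 2, 7 of 7 were lower in SHR, 5 of them with both SHR arrays below the single WKY array (35.1% of all kept probesets), with a median of -0.52 and a Mx1 difference of -1.40. With scan day as a fixed block 0 members were called in any comparison. Of all kept probesets that fit called 0 in ACTH against WKY. It called 9 higher and 17 lower in SHR against WKY, and 23 and 12 in ACTH against SHR. ACTH against WKY then joins ACTH against SHR 3 on 1 day with SHR 1 and SHR 2 against WKY 2 on the other. It takes the SHR pools as alike apart from scan day, and the other WKY arrays add nothing to it. The median member difference was -1.02.

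RNA quality also moved with the groups. The 3′/5′ ratio of GAPDH, which rises with RNA degradation, was 4.05 ± 0.44 in ACTH, 4.17 ± 0.86 in SHR and 5.41 ± 0.54 in WKY (exact two-sided permutation p = 0.1 for ACTH against WKY, the smallest that 3 against 3 arrays can give, and p = 0.2 for SHR against WKY). The same ratio of beta-actin was 9.01 ± 0.65 in ACTH, 8.80 ± 0.41 in SHR and 12.1 ± 2.06 in WKY (exact p = 0.1 for ACTH and for SHR against WKY). With the GAPDH ratio as a covariate the median member difference between ACTH and WKY was -1.28 and Mx1 differed by -1.94 ± 0.45 (adjusted p = 0.230). In that fit 0 of all kept probesets were called between ACTH and WKY.

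Markers of other cells differed between groups as well. The summed signal of the 12 kept of 15 macrophage probesets was 2861 to 3989 in ACTH, 2061 to 2825 in SHR and 1091 to 2390 in WKY. WKY 2 (2390) stood apart from WKY 1 (1111) and WKY 3 (1091). By estimate all 12 were higher in ACTH than in WKY (54.1% of all kept probesets), and 1 was called (1.21% of all in either direction). Arrays could still overlap: Aif1 had signals of 43.3, 36.1 and 42.7 in ACTH and 12.4, 48.8 and 56.4 in WKY. Of 17 lymphocyte and dendritic cell probesets 2 were kept, Lck and Klrk1, with sums of 73.9 to 126 in ACTH, 84.4 to 119 in SHR and 69.4 to 98.3 in WKY. The 12 fibroblast probesets summed to 12924 to 16503 in ACTH, 19456 to 22209 in SHR and 20196 to 23143 in WKY, and 3 were called lower in ACTH than in WKY. By estimate 7 of the 12 were lower in ACTH than in WKY and 5 were higher, so the sum does not stand for every marker. Dcn, for instance, had signals of 3694, 3503 and 3736 in ACTH and 2493, 2353 and 2894 in WKY. The part of macrophage and fibroblast content in the member differences was not tested. Smooth muscle markers, which define the tissue, were the strongest list, with sums of 40143 to 41413 in ACTH, 42932 to 44638 in SHR and 38373 to 45600 in WKY.

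**Figure D3:**
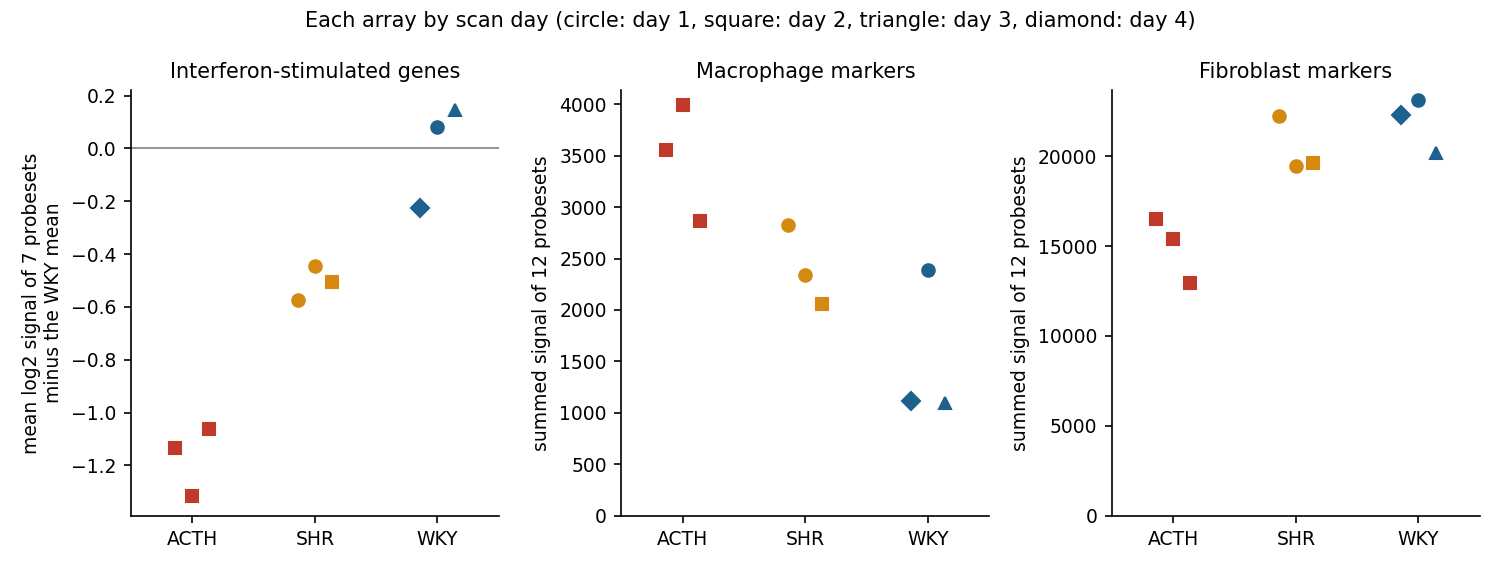
Mean log2 signal of the 7 kept members relative to the WKY mean (left), and linear summed signals of 12 macrophage (middle) and 12 fibroblast probesets (right) on each array, with marker shape giving the scan day. Members are lowest and macrophage sums highest in ACTH (2861 to 3989), and fibroblast sums are lowest there.

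The rest of the pathway was read from lists of genes, ordered from ligand to target. Of the ligands and receptors 3 of 10 probesets were kept, Ifnar2, Ifngr1 and Ifngr2, and 0 were called in ACTH against WKY. Ifnar2, a chain of the type I receptor, differed by -0.49 ± 0.20 (adjusted p = 0.359), and Ifngr2, a chain of the gamma receptor, by 0.49 ± 0.18 (adjusted p = 0.281). The 4 probesets of Ifnar1 and the single ones of Ifnb1 and Ifng were not kept, so ligand transcripts could not be followed at these signals.

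In JAK-STAT and IRF signalling 0 of 9 kept probesets were called in ACTH against WKY, and 8 of 9 had a negative difference (45.9% of all kept probesets). The 9 probesets stand for 7 genes, since Stat2 and Stat3 have 2 each. Irf9, the DNA-binding subunit of the complex at the ISRE, had signals of 68.7, 94.5 and 54.5 in ACTH, 117, 102 and 192 in SHR, and 155, 238 and 155 in WKY. Its ACTH arrays lay below all others, and the log2 difference of ACTH from WKY was -1.34 ± 0.28 (adjusted p = 0.0537). The Stat2 probesets gave -0.87 ± 0.21 (adjusted p = 0.0991) and -0.68 ± 0.21 (adjusted p = 0.176). Irf3, which induces interferon after sensing of viral RNA, differed from WKY by -0.55 ± 0.14 in ACTH (adjusted p = 0.124). In SHR it differed by -0.46 ± 0.14 (adjusted p = 0.143). In SHR against WKY 9 of 9 had a negative difference (50.6% of all kept probesets). The list's median was -0.33 both in SHR and in ACTH against WKY. In SHR against WKY 1 of 9 was called, where 2.04% of all kept probesets were called in either direction. It was 1 of the 2 Stat3 probesets, with a difference of -1.65 ± 0.19 (adjusted p = 0.00152). The other Stat3 probeset gave -0.33 ± 0.21 (adjusted p = 0.454), so the probesets of this gene disagree.

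Other antiviral interferon-stimulated genes were the largest list, with 28 kept probesets. In ACTH against WKY 3 were called lower and 0 higher, 24 of 28 had a negative difference (45.9% of all kept probesets), and the list's median was -0.25. In SHR against WKY 21 of 28 had a negative difference (50.6% of all kept probesets), with a median of -0.09. Lgals3bp, a secreted glycoprotein that binds galectins, had signals of 88.6, 81.2 and 82.2 in ACTH, 126, 127 and 132 in SHR, and 131, 191 and 196 in WKY. It was lower on all ACTH arrays than on any other, by -1.02 ± 0.17 against WKY (adjusted p = 0.0189). Ifi27, a small membrane protein of mitochondria and nuclear envelope, fell by 1.03 ± 0.18 (adjusted p = 0.0247) and its relative Ifi27l2b by 1.55 ± 0.27 (adjusted p = 0.0230). Ifi27 was lower in ACTH than in SHR too, by -0.93 ± 0.18 (adjusted p = 0.0203), whereas SHR differed from WKY by -0.10 ± 0.18 (adjusted p = 0.826).

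Ifit1, which binds viral RNA lacking a cap methylation and lies in the same gene family as Ifit3, was higher in SHR than in WKY. Signals were 30.5, 44.8 and 43.1 in ACTH, 84.3, 94.0 and 76.9 in SHR, and 34.6, 29.6 and 42.1 in WKY. All SHR arrays were above all others, by 1.27 ± 0.19 against WKY (adjusted p = 0.00658), and ACTH lay 1.12 ± 0.19 below SHR (log2 difference -1.12, adjusted p = 0.0112). It was the 1 probeset of the list called in SHR against WKY. Ifit1 reached the filter limit of 44.3 on every SHR array, on ACTH 2 and on no WKY array. It therefore passed the filter through its high group, which favours such differences. Rsad2, known as viperin, differed by -0.64 ± 0.27 in ACTH (adjusted p = 0.371) and -0.82 ± 0.27 in SHR (adjusted p = 0.174) from WKY.

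In the remaining lists 0 probesets were called in ACTH against WKY: 5 of nucleic acid sensors and adaptors, 1 of Isg15 conjugation (Ube2l6, -0.16 ± 0.19), 1 of interferon-inducible GTPases (Irgm2, -0.66 ± 0.17, adjusted p = 0.108) and 5 of feedback inhibitors. The sensors had a median of 0.19 and the inhibitors one of -0.04. Irgm2 differed from WKY to a like degree in SHR, by -0.66 ± 0.17 (adjusted p = 0.0796).

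**Figure D4:**
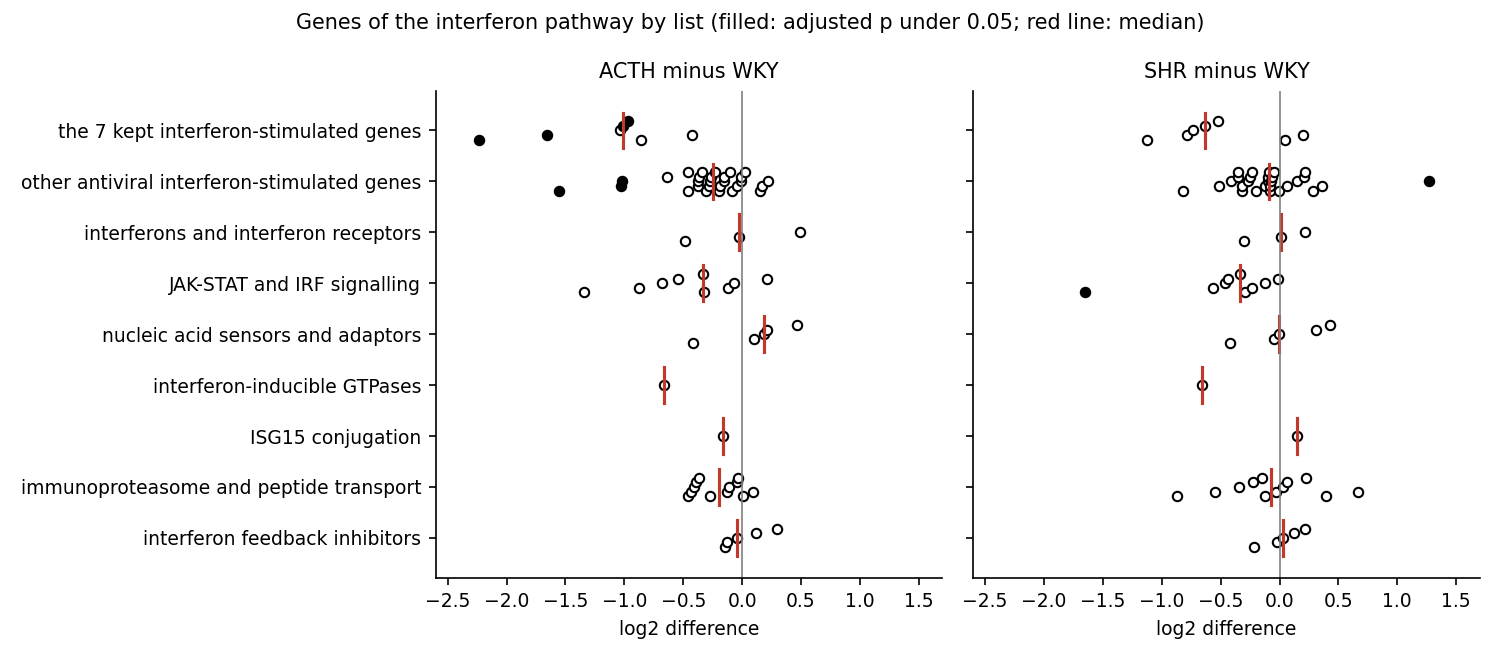
Log2 difference of each kept probeset in 9 lists of interferon pathway genes for ACTH minus WKY (left) and SHR minus WKY (right); filled points have an adjusted p under 0.05 and red lines are list medians. The members have the lowest median in both panels but for the single Irgm2 probeset in SHR, and Ifit1 is the filled point above 0 in SHR.

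As a check of the treatment, 13 kept probesets of glucocorticoid-response genes were read in ACTH against WKY. Angptl4, an inhibitor of lipoprotein lipase, had signals of 356, 450 and 271 in ACTH, 105, 160 and 142 in SHR, and 84.0, 133 and 69.5 in WKY, and rose by 1.94 ± 0.27 (adjusted p = 0.00853). Ddit4 and the clock gene Per1 were called lower, by -1.40 ± 0.22 (adjusted p = 0.0175) and -2.92 ± 0.55 (adjusted p = 0.0345). Per1 had signals of 8.20, 8.46 and 46.2 in ACTH and 113, 142 and 86.4 in WKY. Its signals on ACTH 1 and ACTH 2 lay below the 20th percentiles of those arrays (11.8 and 12.5). The size of the Per1 difference thus rests on values that may lie near background. Tsc22d3, also known as Gilz, differed by -0.68 ± 0.15 (adjusted p = 0.0643). The list therefore held calls in both directions, 1 higher and 2 lower. By estimate 8 of the 13 were lower in ACTH than in WKY (45.9% of all kept probesets) and 5 were higher. The list's median was -0.53, so no common rise was seen.

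Genes with a pattern most like the members were ranked by Pearson r with the mean of the 7 kept members, each centred and scaled over the 9 arrays. The 10 closest had r of 0.936 to 0.971, as a description of arrays that share their groups. Besides Lgals3bp they included RT1-T24-3, a class I histocompatibility gene (r = 0.970), and Slfn4, a gene of the Schlafen family (r = 0.936), both known from interferon-exposed cells of rodents. Since the ranking used the same arrays, their values are a description of the pattern that chose them. RT1-T24-3 had signals of 206, 187 and 218 in ACTH, 451, 663 and 555 in SHR, and 571, 909 and 737 in WKY. The log2 difference of ACTH from WKY was -1.84. Slfn4 gave 63.9, 55.2 and 51.1 in ACTH, 112, 112 and 116 in SHR, and 190.2, 267 and 163 in WKY, with log2 differences from WKY of -1.84 in ACTH and -0.84 in SHR. The others were Cdh13, Pxdn, Higd1a, Ctps1, Prr12, Rbx1 and Col4a1, with log2 differences of -0.79 (Cdh13) to -0.25 (Rbx1) between ACTH and WKY.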

How the data were processed

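RNA of 9 artery pools was hybridised to RAE230A arrays. The authors computed each intensity with MAS5, scaled arrays to a target of 150 and deposited linear signals of 15923 probesets, of which 57 are controls; depth does not apply, and the number of arrays limits the precision. The members and gene lists were chosen with earlier results of these data known.

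Probesets were ranked by their third-highest signal and the top 9098 retained, a number taken from the study, whose presence rule needs detection calls not used here. The fit to log2 signals used limma 3.58.1 under R 4.3.3 (eBayes after lmFit, 6 residual and 4.44 prior degrees of freedom), two-sided, with Benjamini-Hochberg adjustment over the kept probesets. Member probesets were all named. From other lists up to 4 genes with the lowest adjusted p among called probesets were eligible (or 2 uncalled ones as values), and the 10 genes most like the members. Platform symbols were used (12783 probesets with 1 symbol, 312 with several, 2771 with none), and promoters were RefSeq's. Tested on 10 simulated tables of 9098 probesets with 200 changed in ACTH, the fit found 68.9% at a log2 change of 1 and 96.3% at 2, and 5.22% of calls were not changed. The simulated noise was independent between probesets and held no scan-day or RNA-quality differences. These shares therefore do not give the false share among the real calls, where both go with the groups. Alternatives were other filters, normalizations, offsets, variance models, covariates, blocks and each array left out. Nothing states that pools came from separate cages or days, so p-values measure the spread between these pools.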

Additional observations from a re-analysis of the deposited data

How the results depend on the processing

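Negative member differences of ACTH from WKY held under all 23 or 24 alternatives run for each gene, but the calls did not. Against 4 members called, the number was 0 with all non-control probesets, with the GAPDH ratio as a covariate (median log2 difference -1.28), with scan day as a fixed block and by the methods' t-test after Benjamini-Hochberg adjustment, and 2 with a mean signal of at least 100 (Gbp2 and Irf7, the 2 tested) or with the 2 groups alone. The main fit called 50 of all kept probesets higher and 60 lower in ACTH against WKY. All non-control probesets, the GAPDH covariate and the fixed scan-day block called 0 in all, and the t-test 3 higher and 2 lower. The 2 groups alone gave 28 higher and 51 lower, and a mean signal of at least 100 gave 28 and 63 of 6116. Leaving out each array gave 1 to 5 members. The number of members was 1 without ACTH 1, ACTH 2, WKY 1 or WKY 3, which was Mx1, and 2 without ACTH 3. At the methods' own thresholds 5 members passed in ACTH against WKY (4.13% of all kept probesets), 2 in SHR against WKY (Gbp2 and Oas1a, 5.5%) and 1 in ACTH against SHR (Irf7, 6.61%). As many probesets with the highest mean signal, chosen after seeing the data, gave 5. SHR against WKY gave 0, but 1 (Gbp2) with a mean signal of at least 100, with array weights or without SHR 1 (0 to 1 over single arrays left out), and its median of -0.63 was -0.35 with a mean signal of at least 100, -0.47 for log2 of signal plus 16 and -0.86 with the GAPDH covariate. The main fit called 88 of all kept probesets higher and 98 lower there. Array weights called 74 and 81, the fit without SHR 1 60 and 58, and a mean signal of at least 100 75 and 94 of 6116. ACTH against SHR gave 1, but 0 with all non-control probesets, the fixed scan-day block or the methods' t-test, 2 with the GAPDH covariate and 4 with array weights. Array weights called 507 of all kept probesets higher and 376 lower, beside 166 and 143 in the main fit. The GAPDH covariate called 156 and 131, the fixed scan-day block 23 and 12, and the t-test 61 and 58. Leaving out arrays gave 0 to 1 members. The members' median of -0.63 was -0.46 for log2 of signal plus 16, -0.83 with array weights and -0.83 to -0.51 over single arrays left out. Replicate numbers only name arrays: deviations of same-numbered arrays correlated at -0.07 to 0.13. With a replicate block 4 members were called in ACTH against WKY, with Usp18 (adjusted p = 0.0363) in place of Oas1a (adjusted p = 0.0699), 0 in SHR against WKY and 1 in ACTH against SHR. The cause of these changes was not tested, except that fewer arrays or more probesets enter some fits. Low signals limit Mx1 and Mx2 in ACTH, where values may lie near background.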

Other observations

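Of 12 kept probesets of immunoproteasome and peptide-transport genes, many of which interferon gamma induces, 0 were called in SHR against WKY, and 7 were lower by estimate. Psmb8, a catalytic subunit of the immunoproteasome, had signals of 233, 262 and 188 in ACTH, 491, 494 and 465 in SHR, and 242, 347 and 339 in WKY. All SHR arrays were above all others. ACTH was lower than SHR by a log2 difference of -1.10 ± 0.18 (limma, adjusted p = 0.00979), and SHR differed from WKY by 0.66 ± 0.18 (adjusted p = 0.0992). It was the 1 of the 12 probesets called in any of the 3 comparisons. The kept probeset of Tap1, which carries peptides for class I molecules, differed from WKY by -0.87 ± 0.29 in SHR (adjusted p = 0.174) and -0.37 ± 0.29 in ACTH (adjusted p = 0.677). Its WKY signals were 76.5, 175 and 85.8, so WKY 2 stood apart. Another Tap1 probeset, not kept and of low signal, differed the other way in SHR, by 0.49 ± 0.40.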
